A study of Solanum tuberosum with 10 samples.

Results

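Explants of potato (Solanum tuberosum L., cultivar Desirée) were followed over their first day after cutting, with the 24 h libraries set against the 0 h libraries. These were 4 of the 10 RNA-seq libraries of the study, 1 for each treatment at each time, so that 24 h against 0 h had 2 libraries a side, paired by treatment. The groups were ultrasonicated (US) explants at 24 h, control explants at 24 h, US explants at 0 h and control explants at 0 h, all single-node segments carrying a leaf, cut from in vitro plantlets aged 4 w and kept on medium without growth regulators. US was an exposure at 35 kHz and 70 W for 20 min just after the segments had been laid on the medium, and controls received none. The labels give leaf as the tissue of every library, whereas the methods describe whole explants up to 48 h and leaves, stems and roots of plantlets at 1 w and 4 w. The question was which transcripts changed alike in both treatments between 0 h and 24 h, and a gene counted when both agreed in direction. The 0 h explants were the only freshly cut ones, so cutting, transfer to fresh medium and hours in culture cannot be told apart here. Samplings 24 h apart fall nominally at the same time of day, but clock times are not given in the sources used here.

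A cut node loses its supply of sugar and water from the parent plant and has a wound at each end. Plants are known to seal a wound by strengthening and remodelling cell walls, by oxidative cross-linking of wall proteins and phenolics through peroxidases, and by making proteins against microbes and herbivores. A node explant also carries an axillary bud, which grows out in culture and needs wall-loosening proteins and sugar cleavage to do so. Early wound and drought responses are often switched on within minutes to hours, and many fade within a day.

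Library totals were 39360788 reads for US and 45899162 for the control at 24 h, against 36468362 for US and 33850938 for the control at 0 h. Values are RPM, the reads of a gene per 1000000 reads of the library. RPM is not divided by gene length, so levels are compared between libraries for one gene and not between genes. The US library at 24 h stood apart in its rare transcripts, with 866 features of 1 to 5 reads against 1721 to 1922 in the other 3 libraries. The 10 most abundant features took 3.18% (US) and 3.13% (control) of the summed RPM at 24 h, against 4.64% and 5.14% at 0 h. With 2 libraries a side, an exact permutation test on a single gene cannot go below p = 0.333, and p-values below come from one fit over all genes and libraries. The methods describe biological replicates as pooled before sequencing, whereas the labels name a single replicate. These p-values and the SEs therefore use spread between libraries and not between replicates. With 1 library per treatment at each time, that spread is how US minus control varied over the 5 times, plantlets included.

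The first day changed a large part of the transcriptome, and more genes rose than fell. In limma, 4285 of 20494 genes tested, or 20.9%, were higher at 24 h and 2272, or 11.1%, were lower (adjusted p under 0.05 and the same direction in US and control). Together these were 32% of the genes tested, and 9007 genes had a p under 0.05 before adjustment. The rises had a median log2 difference of 1.52 and the falls one of -1.80, and 180 rises and 129 falls were at least 4 in size on the log2 scale. The median over all genes tested was 0.28, so the balance of rises and falls depends on the scaling. With the medians of the libraries aligned, 2753 genes were higher and 3023 lower, and all 2753 and all 2272 of the main falls were shared with the counts above. Without the US library of 24 h, limma called 2344 higher and 1511 lower, and without that of 0 h it called 1626 and 1040. Without the control of 24 h the counts were 2612 and 1737, and without that of 0 h 2636 and 1533.

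Both treatments moved alike for most genes. The differences of US and of control, which share no library, had the same direction in 14959 of the 20494 genes (73.0%), with 9597 higher and 5362 lower in both. Their Pearson correlation across genes was 0.67, and genes are not independent replicates. Both 24 h libraries lay above both 0 h libraries for 43.7% of genes and below both for 23.9%. Pairing US at 24 h with the control at 0 h, and the control at 24 h with US at 0 h, gave a correlation of 0.80. Differences were slightly wider in US, with an SD of 1.62 against 1.41 in the control.

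**Figure D1:**
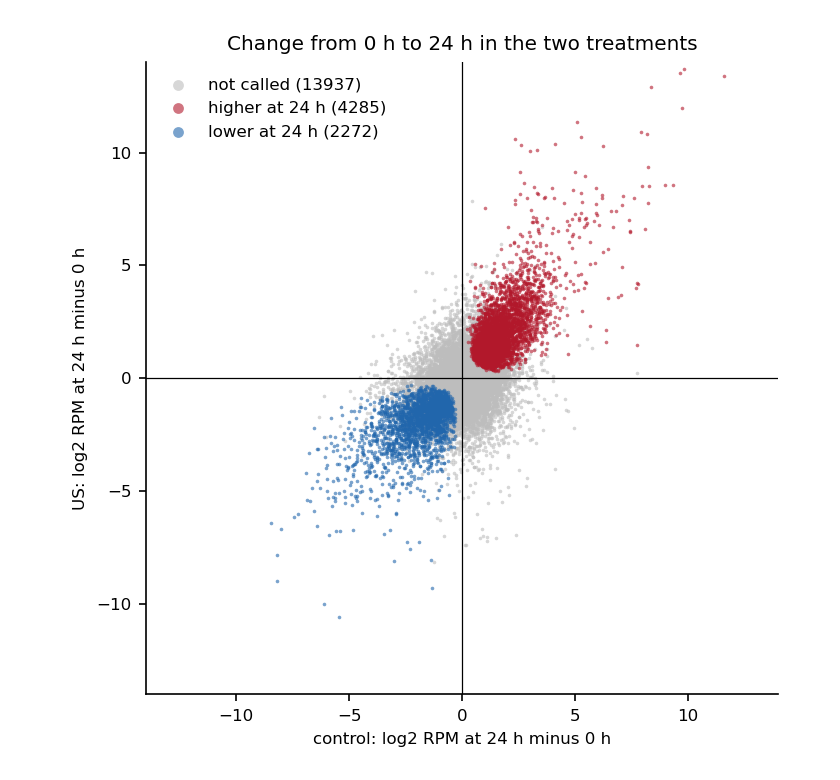
Log2 RPM at 24 h minus 0 h in US (vertical axis) against that in the control (horizontal axis), 1 point for each of 20494 genes, with the 4285 called higher in red, the 2272 called lower in blue and the others in grey. Most points lie in the quadrants where both treatments moved the same way, and the largest rises reach further in US than in the control.

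Large changes were counted by size, without a test: at least 4-fold (2 on the log2 scale) in US and in the control, in the same direction, with at least 1 RPM in the higher library. By this rule 1020 of 22383 features were higher at 24 h (4.56%) and 841 were lower (3.76%), while 43 (0.192%) moved in opposite directions. In US alone 2390 features passed as higher and 1938 as lower, and in the control alone 1733 and 1763. Of the 1020 large rises 882 were abundant enough over the 10 libraries to enter limma and 852 of them were called. Of the 841 large falls 614 entered and 594 were called. The rule and the limma contrast use the same 4 libraries, so these calls largely follow from the choice and are no separate support. The rule fixes that the shares of RNA taken by these features differ between the times, and they are given as a description. The 841 falls took 1.15% (US) and 1.08% (control) of the summed RPM at 24 h, against 9.59% and 10.1% at 0 h. The 1020 rises took 4.37% and 3.24% at 24 h, against 0.375% and 0.450% at 0 h. No read was found in both 0 h libraries for 27 of the rises, and in both 24 h libraries for 17 of the falls.

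By mean log2 difference, with a gene without reads set to 0.9 reads as deposited, the largest rise was that of PGSC0003DMG400003058 (chromosome 8, 54298665 to 54299598, minus strand), for which the study's lists give no description. It had 10386 reads in US and 3845 in control explants at 24 h, against 0 in US and 0 in control explants at 0 h. That was at least 3208-fold higher in US and at least 945-fold higher in the control, with each 0 h library set to a floor of 3 reads (limma adjusted p = 0.000749). Its first place rests on the value given to genes without reads. It was 1 of 6 neighbouring features on chromosome 8 (54286145 to 54299598) that all passed the rule of size, the longest such run. PGSC0003DMG400003057, the gene beside it, had 875 RPM in US and 405 RPM in control explants at 24 h, against 4.22 RPM in US and 2.98 RPM in control explants at 0 h (log2 difference 7.39, limma adjusted p = 0.000305). PGSC0003DMG400003043 had 402 RPM in US and 158 RPM in control explants at 24 h, against 0.219 RPM in US and 0.532 RPM in control explants at 0 h (log2 difference 9.53). The other 3 features of the run, PGSC0003DMG400003042, PGSC0003DMG400003056 and PGSC0003DMG400003044, rose by 8.77, 6.27 and 6.62 on the log2 scale. Neighbours of this kind can be near-identical copies, and the counts use uniquely aligned reads, so the split of reads among them is uncertain.

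Further large rises lay on chromosomes 2, 4 and 8. PGSC0003DMG400000779 (chromosome 4, 59035285 to 59036805, plus strand) had 12760 reads in US and 6489 in control explants at 24 h, against 1 in US and 6 in control explants at 0 h (log2 difference 11.58 ± 1.19, SE of limma, adjusted p = 0.000722). PGSC0003DMG400004783 (chromosome 8, 52823012 to 52823695, plus strand) had 7470 and 3187 reads in US and control at 24 h, against 0 and 7 in US and control at 0 h (log2 difference 10.65 ± 1.09, limma adjusted p = 0.000714). PGSC0003DMG400004737, in the same run of neighbours (52807393 to 52808142, minus strand), had 4950 and 2453 reads in US and control at 24 h, against 1 and 2 in US and control at 0 h. It was too rare over the 10 libraries to enter the main fit, and without the filter its limma adjusted p was 0.00181. PGSC0003DMG400022430 (chromosome 2, 34338339 to 34340696, plus strand) had 3915 and 2337 reads in US and control at 24 h, against 0 and 2 in US and control at 0 h (log2 difference 10.86 ± 0.70, limma adjusted p = 0.000158). All 4 had at least 2337 reads in each 24 h library, against at most 7 in each 0 h library, and none of them has a description in the lists used here.

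Gene names were available for 353 genes, those the study lists as different between US and control at some time. The set was therefore picked for a US effect, and is not a sample of the transcriptome. Of the 325 tested, 63 rose (19.4%) and 24 fell (7.38%), close to the 20.9% and 11.1% of all genes. They were grouped by words of their descriptions into 18 lists, which follow by role. A list is described by its counts and its median log2 difference, beside the 0.28 of all genes.

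**Figure D2:**
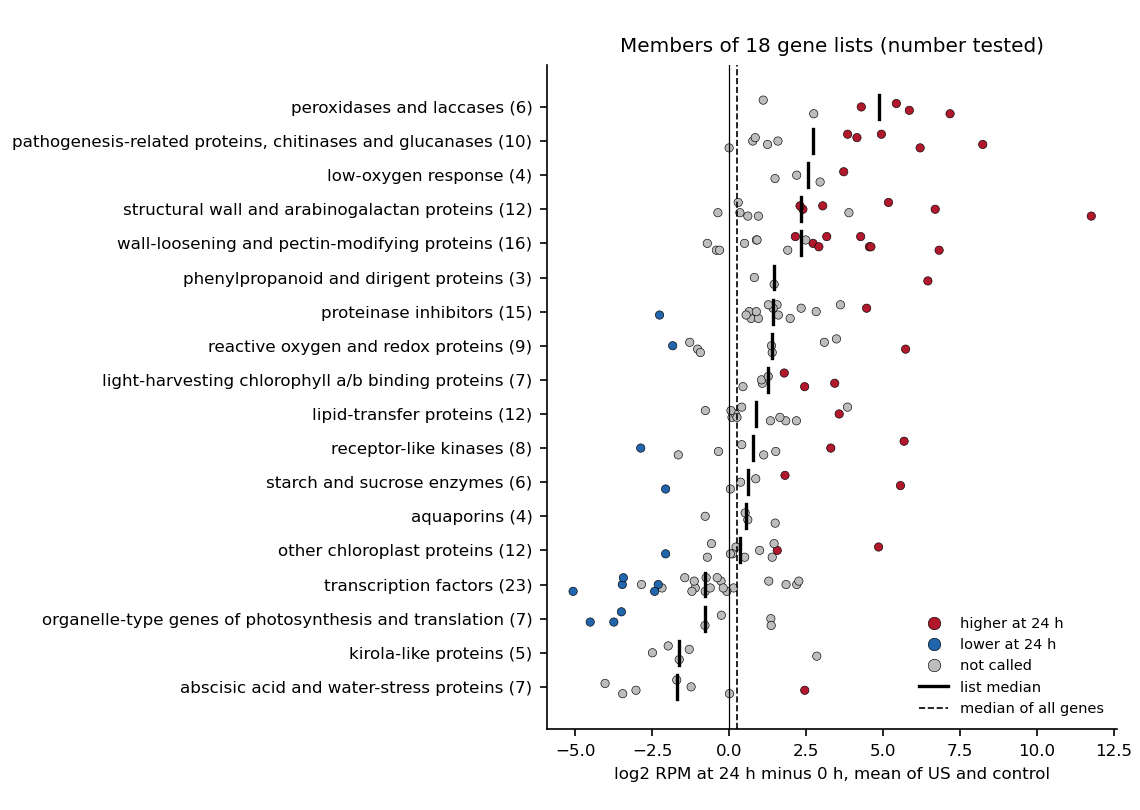
Log2 RPM at 24 h minus 0 h, as the mean of US and control, for the tested members of 18 gene lists (number tested in parentheses, 1 point per gene, black bar for the list median, dashed line for the median of all genes). Peroxidases and laccases have the highest list median (4.87), and called falls (blue) are most frequent among transcription factors (5 of 23) and organelle-type genes (3 of 7).

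Part of the genes for making and loosening the cell wall rose. Among 12 structural wall and arabinogalactan proteins, 6 rose and 0 fell (median 2.36). Among 16 wall-loosening and pectin-modifying proteins, 8 rose and 0 fell (median 2.33). Of all genes 20.9% were higher and 11.1% lower. US and control went opposite ways in 5 of the 12 and 4 of the 16, and in 5535 of all 20494 genes. Extensin-1 (PGSC0003DMG400000794, chromosome 4, 59085133 to 59085620, minus strand), a structural wall glycoprotein that is cross-linked into the wall, had 12848 reads in US and 3775 in control explants at 24 h, against 0 in US and 3 in control explants at 0 h. This was at least 3968-fold higher in US and 928-fold higher in the control (95% interval 317 to 4502), and limma gave an adjusted p of 0.000309. It was unread or nearly so at 0 h in both treatments. A TTS protein (PGSC0003DMG400029695, chromosome 2, 33855748 to 33857400, minus strand), named after a tobacco glycoprotein of the style through which pollen tubes grow, had 20.0 RPM in US and 98.3 RPM in control explants at 24 h, against 0.192 RPM in US and 0.945 RPM in control explants at 0 h. Its ratio was 104 in either treatment (95% intervals 50.4 to 260 in US and 73.5 to 152 in the control, limma adjusted p = 0.00214). A proline-rich protein of the DC2.15 type (PGSC0003DMG400039214, chromosome 8, 52521963 to 52522379, minus strand) rose 112-fold in US and 11.8-fold in the control, to 1087 RPM and 234 RPM at 24 h, against 9.73 RPM and 19.8 RPM at 0 h. It stood first in a run of 5 neighbouring large rises (chromosome 8, 52521963 to 52539655), and a further member of its type, PGSC0003DMG400004736, in a run of 4 (52807393 to 52828621). The remaining risers were a fasciclin-like arabinogalactan protein and a pistil-specific extensin-like protein, with log2 differences of 2.40 and 2.31.

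Pectin-modifying enzymes made up most of the second list. Pectate lyase P18 (PGSC0003DMG400012640, chromosome 2, 47581291 to 47583372, minus strand), which cleaves de-esterified pectin, had 253 RPM in US and 69.3 RPM in control explants at 24 h, against 1.21 RPM in US and 1.12 RPM in control explants at 0 h. This was 209-fold higher in US (95% interval 156 to 288) and 61.8-fold in the control (44.9 to 87.4), with a log2 difference of 6.83 ± 1.00 (SE, limma adjusted p = 0.00224). An expansin (PGSC0003DMG400023815, chromosome 6, 24929807 to 24931111, plus strand), of the family that lets wall polymers slide during growth, had 235 and 73.9 RPM in US and control at 24 h, against 6.36 and 4.55 RPM in US and control at 0 h (36.9-fold and 16.3-fold). Both treatments were low at 0 h, and at 24 h US was the higher. Pectinesterase-like PGSC0003DMG400002074, of the enzymes that remove methyl groups from pectin, had 11.8 and 11.1 RPM in US and control at 24 h, against 0.494 and 0.473 RPM in US and control at 0 h, with nearly the same ratio in both (23.8 and 23.5). It overlaps another feature, so its reads are uncertain. A probable polygalacturonase (PGSC0003DMG400021630), which cuts the pectin backbone, rose by 4.28 ± 1.21 on the log2 scale (SE, limma adjusted p = 0.0272). Xyloglucan endotransglucosylase/hydrolases, which cut and rejoin xyloglucan, did not share the rise, and 0 of 5 passed. One of them, PGSC0003DMG400014823, had 475 and 299 RPM in US and control at 24 h, against 781 and 482 RPM in US and control at 0 h.

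These counts were sensitive to single libraries. Without US at 24 h, 2 of the 12 structural and 3 of the 16 wall-loosening genes were called higher, without the control at 0 h 3 and 3, and without US at 0 h 2 and 5. Of 3 markers of xylem, 2 moved with these lists, and their part in the result was not tested. The summed RPM of 3 xylem markers was 90.4 in US and 35.0 in control explants at 24 h, against 8.09 in US and 15.3 in control explants at 0 h, and 2 of the 3 were called higher. Both were xylem cysteine proteinases, which clear the contents of dying vessel cells, and PGSC0003DMG400029400 among them had no read in US at 0 h. The third marker, laccase-4-like (PGSC0003DMG400011019), rose in US and fell in the control, and was not called (limma adjusted p = 0.533). The 2 epidermis markers, protodermal factor 1-like genes, summed to 126 RPM in US and 222 RPM in control explants at 24 h, against 62.1 RPM in US and 90.0 RPM in control explants at 0 h, and 0 of the 2 were called. FAMA (PGSC0003DMG400015760), a factor of the guard cell lineage, had 56 reads in US and 244 in control explants at 24 h, against 591 in US and 322 in control explants at 0 h (limma adjusted p = 0.154). In bulk tissue, more cells of a type and more RNA per cell cannot be told apart.

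**Figure D3:**
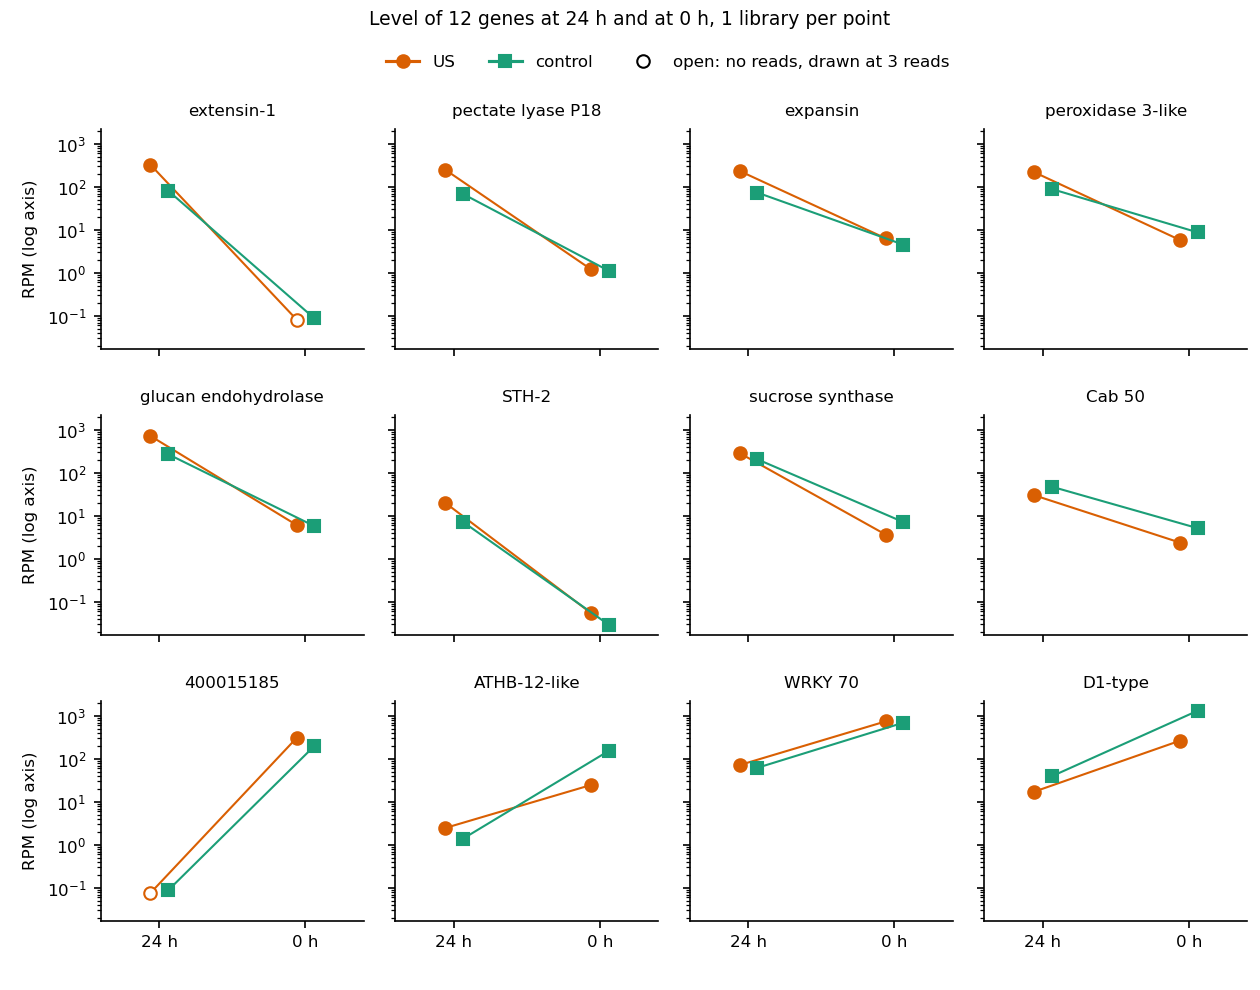
RPM (log axis) of 12 named genes in the 4 libraries, 24 h left and 0 h right in each panel, US in orange circles and control in green squares, open symbols for libraries without reads drawn at the floor of 3 reads. The first 8 panels hold genes higher at 24 h and the last 4 genes lower at 24 h. In each panel both 24 h libraries lie on the same side of both 0 h libraries, as for 67.7% of all genes tested.

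Peroxidases had the highest median of the lists. Of 10 peroxidases and laccases 6 were tested, 4 rose, 0 fell and the median was 4.87. Among all genes 20.9% were higher and 11.1% lower. Peroxidases of this class use hydrogen peroxide to oxidise phenolics and cross-link wall polymers. Peroxidase 3-like (PGSC0003DMG400005273, chromosome 5, 42534436 to 42536130, plus strand) had 220 RPM in US and 89.3 RPM in control explants at 24 h, against 5.79 RPM in US and 8.74 RPM in control explants at 0 h (38.1-fold and 10.2-fold, limma adjusted p = 0.00187). Peroxidase 9 (PGSC0003DMG400003748, chromosome 4, 70184381 to 70186537, minus strand) had 93.7 RPM in US and 45.9 RPM in control explants at 24 h, against 0.165 RPM in US and 7.74 RPM in control explants at 0 h. US and control were closer to each other at 24 h than at 0 h, and the ratio was 570 in US (95% interval 262 to 1550) and 5.94 in the control (5.22 to 6.78). Its paralogue peroxidase 9-like (PGSC0003DMG400006386) had the same pattern, with 0.329 RPM in US and 6.79 RPM in control explants at 0 h. Peroxidase 25 (PGSC0003DMG400025478) was read at 24 h in US (335 reads) and in the control (75 reads), against 0 reads in US and 0 in control explants at 0 h (at least 103-fold and at least 18.4-fold, floor of 3 reads per library). Laccase-4-like, a lignin-forming oxidase, was not called and went opposite ways, with 4.57 RPM in US and 1.20 RPM in control explants at 24 h, against 0.521 RPM in US and 2.25 RPM in control explants at 0 h.

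A dirigent protein 24-like gene (PGSC0003DMG400030182, chromosome 4, 6664537 to 6665910, plus strand) rose as well. Dirigent proteins steer the coupling of phenolic radicals, as in lignan formation, and this gene was 1 of 10 chosen by the study for RT-qPCR, a measurement not analysed here. The primers the study designed for it show what that assay would amplify:
PGSC0003DMG400030182 forward: caacaaacactggagcag
PGSC0003DMG400030182 reverse: ttagagtggtccaaagcc
It had 38.2 RPM in US and 21.9 RPM in control explants at 24 h, against 0 RPM in US and 4.34 RPM in control explants at 0 h. That is at least 465-fold higher in US and 5.03-fold higher in the control (95% interval 4.23 to 6.02), with a log2 difference of 6.46 ± 1.58 (SE, limma adjusted p = 0.0154). Phenylalanine ammonia-lyase PGSC0003DMG402021549, the entry enzyme of the phenylpropanoid pathway, had 503 RPM in US and 344 RPM in control explants at 24 h, against 154 RPM in US and 357 RPM in control explants at 0 h, and did not pass (limma adjusted p = 0.253). In the control it was as high at 0 h as at 24 h. A cytochrome P450 98A2-like gene, of the family that hydroxylates phenolic esters, was 2.65-fold higher in US and 2.89-fold in the control without passing (limma adjusted p = 0.165, but 0.0434 from the 4 libraries alone).

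Genes of defence proteins rose in 5 of 10 tested cases and fell in 0 (median 2.72), against 20.9% higher and 11.1% lower among all genes. In 3 of the 10 US and control went opposite ways. A glucan endohydrolase (PGSC0003DMG400020017, chromosome 1, 45137502 to 45139268, plus strand), of the enzymes that cut beta-1,3-glucan in microbial walls and in callose, had 721 RPM in US and 273 RPM in control explants at 24 h, against 6.14 RPM in US and 5.82 RPM in control explants at 0 h. The ratio was 117 in US (95% interval 103 to 134) and 46.9 in the control (40.7 to 54.3), and limma gave an adjusted p of 0.00111. Chitinase 2-like (PGSC0003DMG400015523, chromosome 11, 45014208 to 45015317, plus strand) had 174 RPM in US and 54.1 RPM in control explants at 24 h, against 1.89 RPM in US and 5.17 RPM in control explants at 0 h (limma adjusted p = 0.00365). STH-2 (PGSC0003DMG400001550, chromosome 9), a potato protein of the PR-10 family, had 800 and 338 reads in US and control at 24 h, against 2 and 1 reads in US and control at 0 h. Its span overlaps another feature, but its neighbour STH-2-like (PGSC0003DMG402001494) rose too, with 643 RPM in US and 230 RPM in control explants at 24 h, against 23.0 RPM in US and 30.6 RPM in control explants at 0 h. Other defence genes did not pass. PR-1 (PGSC0003DMG400043108), the classical salicylic acid marker, had 30.8 RPM in US and 33.9 RPM in control explants at 24 h, against 5.73 RPM in US and 55.7 RPM in control explants at 0 h, and acidic endochitinase Q had a log2 difference of 0.01. The basic form of PR-1 (PGSC0003DMG400005112) had 335 reads in US and 25 in control explants at 24 h, against 0 reads in US and 0 in control explants at 0 h, and was too rare to enter the main fit. Without the filter its limma adjusted p was 0.00907.

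Proteinase inhibitors, which potato makes after wounding, gave few calls. Of 15 tested 1 rose and 1 fell (6.67% each), against 20.9% higher and 11.1% lower among all genes. The mean difference was positive in 14 of the 15, as in 12451 of all 20494 genes, and the median was 1.43. In 8 of the 15 US and control went opposite ways, as in 5535 of all genes. The calls depended on the libraries used: limma called 6 higher and 1 lower with the 4 libraries alone, 3 and 0 without US at 0 h, 2 and 0 without the control at 24 h, and 0 and 0 without US at 24 h. The riser was a Kunitz-type inhibitor precursor (PGSC0003DMG400009511, chromosome 3, 49798113 to 49798938, minus strand), with 6434 RPM in US and 4513 RPM in control explants at 24 h, against 76.7 RPM in US and 767 RPM in control explants at 0 h (83.9-fold and 5.88-fold, limma adjusted p = 0.028). The one that fell, PGSC0003DMG400009514 on the same chromosome (49841306 to 49842079, minus strand), had 137 RPM in US and 140 RPM in control explants at 24 h, against 823 RPM in US and 531 RPM in control explants at 0 h (limma adjusted p = 0.0337). Proteinase inhibitor II, the wound-inducible inhibitor known from tomato and potato leaves, had 778 RPM in US and 652 RPM in control explants at 24 h, against 149 RPM in US and 1254 RPM in control explants at 0 h. Its highest library of the 4 was thus the fresh control, and the 24 h levels lay between the 2 libraries of 0 h. The 3 cystatins, inhibitors of cysteine proteases, were all higher in US than in control explants at 0 h and none passed. Kunitz genes lie in near-identical copies, so reads may be missing or split among them.

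Of 6 starch and sucrose enzymes 2 rose and 1 fell (median 0.62), against 20.9% higher and 11.1% lower among all genes. Calls in both directions were lost in fits that left out 1 of the 4 libraries. Sucrose synthase (PGSC0003DMG400002895, chromosome 12, 3085137 to 3091456, plus strand), which splits sucrose for wall and energy metabolism, had 289 RPM in US and 208 RPM in control explants at 24 h, against 3.67 RPM in US and 7.21 RPM in control explants at 0 h. This was 78.5-fold higher in US (95% interval 66.2 to 93.8) and 28.9-fold in the control (25.4 to 32.9), at a limma adjusted p of 0.00183. An apoplastic invertase (PGSC0003DMG401028252, chromosome 10, 55840813 to 55843004, plus strand), which splits sucrose in the wall, had 52.5 RPM in US and 56.5 RPM in control explants at 24 h, against 14.9 RPM in US and 15.9 RPM in control explants at 0 h. Its ratios of 3.51 in US and 3.56 in the control were close (limma adjusted p = 0.0159). Beta-amylase 1 (PGSC0003DMG400001549, chromosome 9, 57420528 to 57423450, plus strand), which releases maltose from leaf starch, fell to 82.4 RPM in US and 100 RPM in control explants at 24 h, against 166 RPM in US and 862 RPM in control explants at 0 h (limma adjusted p = 0.0216). This was 2.02-fold lower in US and 8.58-fold lower in the control. A further sucrose synthase-like gene (PGSC0003DMG400013547) did not follow, with 56.9 and 31.3 RPM in US and control at 24 h, against 16.6 and 63.7 RPM in US and control at 0 h.

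Genes known from low oxygen were higher at 24 h in both treatments in 4 of 4 cases, as were 9597 of all 20494 genes. Of the 4, 1 passed as higher, against 20.9% of all genes. Non-symbiotic hemoglobin 1 (PGSC0003DMG400030927, chromosome 7, 4601519 to 4603609, minus strand), which scavenges nitric oxide, had 1041 RPM in US and 435 RPM in control explants at 24 h, against 62.4 RPM in US and 41.2 RPM in control explants at 0 h (limma adjusted p = 0.0242). Alcohol dehydrogenase (PGSC0003DMG400030771), the last step of ethanol fermentation, had 536 RPM in US and 166 RPM in control explants at 24 h, against 65.2 RPM in US and 64.6 RPM in control explants at 0 h (limma adjusted p = 0.23). With the 4 explant libraries alone limma called all 4, and with the variance fitted without a trend, or without any 1 of US at 24 h, control at 0 h and US at 0 h, it called 0. Of 9 reactive oxygen and redox genes 1 rose and 1 fell (median 1.38), against 20.9% higher and 11.1% lower among all genes. With the 4 libraries alone 5 were called higher and 1 lower, and without the control at 24 h 2 and 0. The L-ascorbate oxidase homolog PGSC0003DMG400029325 rose 77.7-fold in US and 36.8-fold in the control (limma adjusted p = 0.00225), to 245 RPM and 62.0 RPM at 24 h, against 3.15 RPM and 1.68 RPM at 0 h. A respiratory burst oxidase homolog (PGSC0003DMG400024754), of the NADPH oxidases that make extracellular superoxide, had 147 RPM in US and 34.6 RPM in control explants at 24 h, against 3.37 RPM in US and 11.9 RPM in control explants at 0 h. It missed the threshold (limma adjusted p = 0.0755), and passed with the 4 libraries alone (0.0182). The gene that fell, a monothiol glutaredoxin-S2-like gene (PGSC0003DMG400022674), of small thiol oxidoreductases, had 20.8 RPM in US and 23.7 RPM in control explants at 24 h, against 127 RPM in US and 48.8 RPM in control explants at 0 h (log2 difference -1.83, limma adjusted p = 0.0464).

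Threonine dehydratase (PGSC0003DMG400012987, chromosome 9, 4336457 to 4342614, minus strand), the first enzyme of isoleucine synthesis, was the largest rise among genes described as chloroplast proteins. It had 1667 RPM in US and 733 RPM in control explants at 24 h, against 87.2 RPM in US and 16.5 RPM in control explants at 0 h, or 19.1-fold and 44.3-fold higher (limma adjusted p = 0.00311). Of the 12 members of that list 2 rose and 1 fell, the faller being beta-amylase 1, and without US at 24 h 1 was called higher and 0 lower. Non-specific lipid-transfer proteins, which carry lipids to the cuticle, gave 1 rise in 12: PGSC0003DMG400030587 (chromosome 5, 3453699 to 3454490, minus strand), with 354 RPM in US and 150 RPM in control explants at 24 h, against 14.6 RPM in US and 25.3 RPM in control explants at 0 h (limma adjusted p = 0.00545). The clustered copies of the same family on the unplaced sequences (chromosome 0) had log2 differences of 0.07 to 0.41. Aquaporins gave 0 calls in 4 and kirola-like proteins 0 in 5, with medians of 0.57 and -1.62. Beside these counts of chloroplast, lipid-transfer, aquaporin and kirola-like genes, 20.9% of all genes were higher and 11.1% lower.

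Photosynthesis genes were in 2 lists, and the difference between the lists was not tested. Nuclear genes of chlorophyll a/b binding (Cab) proteins, the antenna of the photosystems, were higher at 24 h in both treatments in 7 of 7 cases. So were 9597 of all 20494 genes, and 3 of the 7 were called higher, against 20.9% of all genes. Limma called 1 of the 7 without the control at 24 h, without US at 24 h or without US at 0 h. Cab 50 (PGSC0003DMG400013416, chromosome 3, 760745 to 761695, plus strand) had 30.2 RPM in US and 47.9 RPM in control explants at 24 h, against 2.39 RPM in US and 5.17 RPM in control explants at 0 h (12.7-fold and 9.26-fold, limma adjusted p = 0.00445). Its neighbours PGSC0003DMG400013415 and PGSC0003DMG400013414 rose by 2.46 and 1.80 on the log2 scale, and PGSC0003DMG400013414 no longer passed with the library medians aligned (limma adjusted p = 0.0863). Cab copies are near-identical and uniquely aligned reads undercount them, so these levels are uncertain. The green leaf markers of the labelled tissue are these 7 Cab genes and carbonic anhydrase, so their sum is not independent of the Cab values above. The summed RPM of the 8 was 608 in US and 964 in control explants at 24 h, against 586 in US and 191 in control explants at 0 h, with reads of all 8 in each library. Carbonic anhydrase made most of this sum in each library except the control at 0 h. It differed most within 0 h, with 524 RPM in US and 71.7 RPM in the control.

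Genes of the organelle type fell in 3 of 7 tested cases and rose in 0, against 11.1% lower and 20.9% higher among all genes. In the other 4 US and control went opposite ways, as in 5535 of all 20494 genes. The list holds genes described as chloroplast or mitochondrial that the build places on nuclear chromosomes. Reads of the organelle's own genome and of such copies cannot be told apart here. The gene described as photosystem II protein D1 (PGSC0003DMG400004211, chromosome 1, 53785743 to 53794560, plus strand), a core of the reaction centre, had 17.2 RPM in US and 39.3 RPM in control explants at 24 h, against 266 RPM in US and 1318 RPM in control explants at 0 h. Its log2 difference was -4.51 ± 0.62 (SE, limma adjusted p = 0.00184). The gene described as CP47 (PGSC0003DMG400046303) fell by 3.74 and the one described as the large subunit of ribulose bisphosphate carboxylase (PGSC0003DMG400033037) by 3.49 on the log2 scale, with limma adjusted p of 0.00719 and 0.00578. In all 3 the control at 0 h was the highest library. ATP synthase subunit 9 (PGSC0003DMG400002202) was among those 4, with 51.4 RPM in US and 14.6 RPM in control explants at 24 h, against 25.6 RPM in US and 86.4 RPM in control explants at 0 h. The libraries were enriched for poly(A) RNA, which organelle and ribosomal RNA largely lack, and the share of ribosomal RNA was 0.234% in US and 0.132% in control explants at 24 h, against 0.468% in US and 0.166% in control explants at 0 h. Its part in these falls was not tested.

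By count, transcription factors had the most falls of the lists: 5 of 23 tested (21.7%) fell and 0 rose (median -0.77). Among all genes 11.1% were lower and 20.9% higher, and among the organelle-type genes tested 42.9% were lower. Without the control at 0 h 3 fell, and with the 4 libraries alone limma called 7 lower and 2 higher. WRKY transcription factor 70 (PGSC0003DMG400029207, chromosome 9, 18826014 to 18827752, minus strand), known in Arabidopsis for balancing salicylic and jasmonic acid defence, fell to 71.6 RPM in US and 61.7 RPM in control explants at 24 h, against 744 RPM in US and 691 RPM in control explants at 0 h. The treatments were close at both times, and the log2 difference was -3.43 ± 0.60 (SE, limma adjusted p = 0.00416). A second gene of that description, PGSC0003DMG400020608 on chromosome 3, had 43.6 RPM in US and 56.0 RPM in control explants at 24 h, against 205 RPM in US and 288 RPM in control explants at 0 h (limma adjusted p = 0.0218). ATHB-12-like (PGSC0003DMG400000248, chromosome 1, 73906356 to 73907795, minus strand), a homeodomain factor that responds to drought and abscisic acid in Arabidopsis, had 2.46 RPM in US and 1.37 RPM in control explants at 24 h, against 24.8 RPM in US and 153 RPM in control explants at 0 h. Its log2 difference was -5.06 ± 0.79 (SE, limma adjusted p = 0.00285). The like-named PGSC0003DMG400012118 on chromosome 8 fell by 3.47 on the log2 scale (limma adjusted p = 0.00601), and in both genes the control at 0 h was far above US at 0 h. The fifth was an ethylene-responsive factor (PGSC0003DMG400022823, chromosome 10, 4698822 to 4700272, plus strand), with 146 RPM in US and 39.2 RPM in control explants at 24 h, against 415 RPM in US and 391 RPM in control explants at 0 h. The 3 ZAT10-like zinc finger genes, a family known from early wound and cold responses, gave no call, with log2 differences of -1.13, -0.19 and 0.15.

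Abscisic acid and water-stress genes gave few calls. Of 7 tested 1 rose and 0 fell, against 20.9% higher and 11.1% lower among all genes. The median was nevertheless -1.70, the lowest of the lists. 9-cis-epoxycarotenoid dioxygenase (PGSC0003DMG400027633, chromosome 7, 51778895 to 51781175, minus strand), the key enzyme of abscisic acid synthesis, had 8.13 RPM in US and 2.94 RPM in control explants at 24 h, against 27.1 RPM in US and 234 RPM in control explants at 0 h. It did not pass in the main fit (limma adjusted p = 0.143). Protein phosphatase 2C 51 (PGSC0003DMG400009112), of the family that damps abscisic acid signalling, had 24.2 RPM in US and 12.6 RPM in control explants at 24 h, against 84.5 RPM in US and 238 RPM in control explants at 0 h (limma adjusted p = 0.0713). For both genes all 24 h levels lay below all 0 h levels, as for 23.9% of all genes, yet US and control differed within 0 h. The call depends on the libraries used, since with the 4 libraries alone limma called 4 of the 7 lower. The riser, an HVA22-like gene (PGSC0003DMG402023061), had a log2 difference of 2.46 and no longer passed with the library medians aligned (limma adjusted p = 0.056). Senescence-associated gene 21 had a log2 difference of 0.02, with 646 RPM in US and 239 RPM in control explants at 24 h, against 262 RPM in US and 574 RPM in control explants at 0 h.

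Receptor-like kinases gave 2 rises and 1 fall in 8, and 0 of either without US at 24 h. In the main fit the shares of 25% and 12.5% were close to the 20.9% higher and 11.1% lower of all genes. Wall-associated kinase 3-like (PGSC0003DMG400028372, chromosome 5, 522524 to 523316, plus strand), of a family that binds pectin, had 9.93 RPM in US and 3.92 RPM in control explants at 24 h, against 0 RPM in US and 0.591 RPM in control explants at 0 h (limma adjusted p = 0.0117). A G-type lectin kinase (PGSC0003DMG400017331, chromosome 7) rose 21.7-fold in US and 4.53-fold in the control, and a leucine-rich repeat kinase (PGSC0003DMG402023575, chromosome 4), which overlaps another feature, fell by 2.87 on the log2 scale. The fall was large in US, with 2.57 RPM at 24 h against 92.4 RPM at 0 h, and small in the control, with 6.82 RPM at 24 h against 10.1 RPM at 0 h.

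The largest falls were of genes read almost solely in fresh explants. PGSC0003DMG400015185 (chromosome 3, 50882145 to 50883906, minus strand) had 0 reads in US and 4 in control explants at 24 h, against 11161 in US and 6674 in control explants at 0 h. It was at least 4015-fold lower in US, and the other 6 libraries held 0 to 0.395 RPM of it. This gene opens a run of 4 neighbouring large falls on chromosome 3 (50882145 to 50918063). The next 3, PGSC0003DMG400015184, PGSC0003DMG400015183 and PGSC0003DMG400015242, had 0 reads each in US at 24 h and 5, 6 and 21 in control explants at 24 h, against 2173, 2670 and 2654 in US and 1120, 1657 and 2493 in control explants at 0 h. Because they were near 0 at every other time, the filter on the mean of 10 libraries kept all 4 out of the main fit, and without the filter their limma adjusted p ranged from 0.00328 to 0.00765. PGSC0003DMG400012526 (chromosome 8, 108134 to 109122, plus strand) had no read at 24 h, with 491 reads in US and 1458 in control explants at 0 h (at least 177-fold and at least 659-fold lower). It lay in another run of 4 large falls (chromosome 8, 94462 to 112152). PGSC0003DMG400008781 (chromosome 8, 12079062 to 12079728, plus strand) had 0 reads in US and 1 in control explants at 24 h, against 1586 in US and 2258 in control explants at 0 h, and PGSC0003DMG400026825 (chromosome 8, 12154950 to 12155763, plus strand) had 24 and 1 at 24 h, against 2998 and 3074 at 0 h. None of these has a description in the lists used here.

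Neighbouring genes passing the rule of size were found in both directions: 10 runs of 3 or more rises with 36 genes, and 14 runs of falls with 47 genes. Called genes were otherwise spread over the genome, with 19.5% to 24.1% of tested genes higher and 8.10% to 12.6% lower on chromosomes 1 to 12. On the unplaced sequences 11.5% were higher and 9.46% lower. The median span was 2258 bp for the large rises and 2036 bp for the large falls, against 3347 bp for all features with at least 1 RPM.

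Of 29 ribosomal RNA features tested 0 rose and 7 fell, and of 33 other non-coding features 2 rose and 7 fell, against 20.9% higher and 11.1% lower among all genes. A feature of small-subunit ribosomal RNA (ENSRNA049453899, chromosome 4, 33078102 to 33078553, plus strand) had 26 reads in US and 19 in control explants at 24 h, against 946 in US and 858 in control explants at 0 h (log2 difference -5.62, limma adjusted p = 0.0173). A signal recognition particle RNA (ENSRNA049455599, chromosome 9, 57017953 to 57018072, minus strand), part of the machinery that targets proteins to membranes, had 59 reads in US and 130 in control explants at 24 h, against 492 in US and 4439 in control explants at 0 h (limma adjusted p = 0.0248). Both are of families with near-identical copies and lack a poly(A) tail as mature RNA, so the counts are uncertain.

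Of the 43 features that moved in opposite directions, 29 were lower in US and higher in control explants at 24 h and 14 the reverse. A gene described as chloroplast ribosomal protein S7 (PGSC0003DMG400038200, chromosome 1, 51065414 to 51065809, minus strand) was also among the RT-qPCR genes, with these primers:
PGSC0003DMG400038200 forward: atcgactcatcaagttccc
PGSC0003DMG400038200 reverse: agtctcttcctttttgcgt
It had 236 reads in US and 462 in control explants at 24 h, against 1010 in US and 11 in control explants at 0 h. The 2 libraries of 24 h were close, and it was at 0 h that US and control differed. Of the 10 RT-qPCR genes, which the study chose on the US contrast, 6 were tested and 1, the dirigent gene, was called. POS2 (PGSC0003DMG400015772) was 1 of the others, with 0 RPM in US and 5.88 RPM in control explants at 24 h, against 0.823 RPM in US and 1.39 RPM in control explants at 0 h.

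The median of the large rises stayed well above its 0 h level up to 1 w and was lower at 4 w, while the large falls stayed low. The median level of the 1020 large rises was 1.49 RPM in US and 2.01 RPM in control explants at 0 h, 17.1 and 16.4 RPM at 24 h, 15.6 and 20.4 RPM at 48 h, 15.8 and 12.2 RPM at 1 w, and 2.52 and 4.32 RPM at 4 w. That of the 841 large falls was 40.4 and 48.8 RPM at 0 h and 3.53 and 3.22 RPM at 24 h, and it stayed between 2.72 and 4.28 RPM in the 6 libraries after that. The features were chosen on 0 h and 24 h, so the difference between those times is fixed by the choice, while the later libraries were not used for it. Libraries of 1 w and 4 w are of whole plantlets, and time and material cannot be told apart there.

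**Figure D4:**
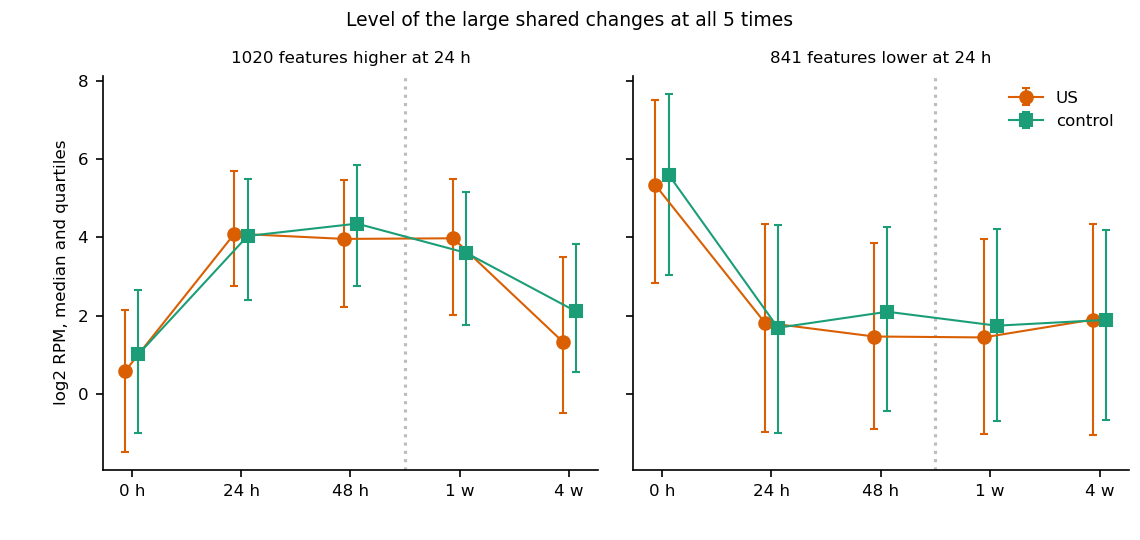
Median log2 RPM with quartiles (bars) of the 1020 features higher at 24 h (left) and the 841 lower at 24 h (right) in each of the 10 libraries, US in orange circles and control in green squares, the dotted line dividing explants from plantlets. The rises return towards their 0 h level by 4 w (2.52 RPM in US and 4.32 RPM in the control), and the falls stay near their 24 h level.

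Single genes differed in how long the rise lasted. PGSC0003DMG400003058 had 264 RPM in US and 83.8 RPM in control explants at 24 h, and 13.9 RPM in US and 14.4 RPM in control explants at 48 h. Extensin-1 had 47.8 RPM in US and 200 RPM in control explants at 48 h, and 3.04 and 1.38 RPM at 1 w. Pectate lyase P18 had 34.3 RPM in US and 406 RPM in control explants at 48 h, and the expansin 39.1 and 205 RPM. For these 3 wall genes the control was still higher at 48 h than at 24 h, whereas US was lower. Sucrose synthase was higher still at 48 h in both, with 388 RPM in US and 491 RPM in the control, and the Kunitz-type inhibitor PGSC0003DMG400009511 had 13129 RPM in US and 5853 RPM in control explants at 48 h. By 1 w that inhibitor was at 111 RPM in US and 176 RPM in the control. The falls of WRKY70 and of ATHB-12-like persisted, with at most 140 RPM and 12.2 RPM in any later library.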

How the data were processed

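The authors enriched poly(A) RNA, made stranded libraries, trimmed reads with Trim Galore 0.5.0, aligned them with HISAT2 2.1.0 and counted uniquely aligned reads per gene in SeqMonk. They deposited log2 RPM for 40430 features in 10 libraries, with a gene without reads set to 0.9 reads. Read counts were recovered from these values (99.98% were whole within 0.1 reads). Summed gene values were 1.71 to 1.77 times the library total, so recovered reads need not be independent counts. The exact 95% intervals treat them as independent and may be too narrow even for counting error. Neither these intervals nor the floor of 3 reads covers spread between samples. Whether counting used strand is not given in the sources used here, so the 3124 overlapping features are uncertain.

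limma 3.58.1 (R 4.3.3) was fitted to all 10 libraries with 5 times and a treatment term, on the genes whose log2 RPM averaged 0 or more, with Benjamini-Hochberg adjustment at 0.05. The fit was tested on simulated data. Alternatives changed the libraries, scaling, pseudocount, filter, variance model and pairing. Named genes were the 6 largest rises and falls, up to 4 called members of each list, the leading non-coding features and the RT-qPCR genes, and others were named after their values were seen. Gene descriptions came from the study's supplementary list of 367 genes. Members and lists were chosen with earlier results of these data known.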

Additional observations from a re-analysis of the deposited data

Results flagged for a closer look

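Among features of large opposite change, 2 stood out because US and control moved opposite ways. The difference between the treatments was not tested, since each treatment had 1 library at each time. A feature of 5.8S ribosomal RNA (ENSRNA049463687, chromosome 2, 2124822 to 2124977, minus strand) had 309 reads in US and 17 in control explants at 24 h, against 14 in US and 7812 in control explants at 0 h, which gave log2 differences of 4.354 in US and -9.283 in the control. The gene described as chloroplast ribosomal protein S7 (PGSC0003DMG400038200) had log2 differences of -2.208 in US and 4.953 in the control. In both, the 0 h libraries were further apart than those of 24 h.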

How the results depend on the processing

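The number of genes higher at 24 h was 2439 with the 4 libraries of 0 h and 24 h alone, 2780 with the 6 explant libraries and 2753 with library medians aligned, and ranged from 1626 to 2636 when 1 of the 4 libraries was left out. Genes lower at 24 h ranged from 1040 to 1737 in those fits, and members of the gene lists called higher from 17 to 43. Residual degrees of freedom were 1 with the 4 libraries, 2 with the 6 and 4 in the main fit. With those that limma borrows across genes, the medians were 8.60 with the 4, 7.41 with the 6 and 8.84 in the main fit. Their part in the counts was not tested. Without the treatment term 4676 genes were higher and 2432 lower. With quantile normalization 55.1% of called genes were higher, with medians aligned 47.7%, and in the main fit 65.4%. By the rule of size, a log2 difference of at least 1 gave 3377 higher, 2208 lower and 501 opposite features, and one of at least 3 gave 355, 328 and 4. The opposite features numbered 13 with at least 4 RPM, 7 on the log2(RPM + 0.5) scale, 5 on the log2(RPM + 1) scale and 13 with crossed pairs, and the higher features 604 on the log2(RPM + 1) scale. The correlation of US and control differences was 0.53 without a filter and 0.80 with crossed pairs. Where no construction is named, the cause was not tested. Of 50 named genes called, 23 were called under each of the up to 14 alternatives that tested them and 45 under both scalings, and 0 changed sign. The pairing by treatment is the treatment term, and the fit of the 4 libraries alone with that term, which left 1 residual degree of freedom, called 2439 higher and 1682 lower. Genes with fewer than 3 reads at 1 time have folds limited by depth.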
